A study of Mus musculus with 2 samples.

Results

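Ceramide is the core of the barrier lipids of the skin, and 9 genes that make, modify or move it were examined: Sptlc1, Sptlc2, Sptlc3, Cers3, Cers4, Ugcg, Smpd1, Fa2h and Abca12. They were found by gene name among the gene spots of both scanner files, the older name Lass4 being read as Cers4. Of the 9, 8 had a spot, with 16 of the 41174 different probes on each array. No spot carried the name Cers3 or Lass3, and Cers3 was not analysed here. The samples were primary epidermal keratinocytes of K14-caSmad1 mice, which carry a transgene for an always active Smad1, and of wild-type mice. All were FVB/NJ animals at day 20 after birth, and the tissue is labelled as epidermis. K14 is the usual short name of the promoter of keratin 14, a basal keratinocyte gene, and the labels say no more about what drives the transgene. Each of the 2 arrays held K14-caSmad1 RNA in the Cy5 channel and wild-type RNA in the Cy3 channel. Number and sex of the animals behind a sample are not given.

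Ceramide synthesis starts in the endoplasmic reticulum, where serine palmitoyltransferase joins serine to an acyl group carried by coenzyme A. Ceramide synthases then attach a fatty acid to the long-chain base, and a desaturase turns the product into ceramide. In the upper epidermis ceramide is converted to glucosylceramide and sphingomyelin, packed into lamellar granules, and turned back to ceramide after secretion into the cornified layer, where it forms part of the water barrier.

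The sequences below belong to the 3 genes with the largest differences. For Sptlc3 the whole result rests on 1 probe of 60 bases at chr2:139451591-139451650 on the plus strand of mm9, a probe which the file names A_52_P411376. The longest run of bases that any of the 16 probes shared with a probe of another of these genes was 8.
Sptlc3 probe: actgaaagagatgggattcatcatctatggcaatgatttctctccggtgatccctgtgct
Smad proteins are known to bind DNA at GC-rich elements, written here as GGCGCC and GGAGCC, and at the short element GTCT. The promoters of Sptlc1, Sptlc3 and Cers4 are shown because these genes differed most in cells with active Smad1. They cover 250 bases before to 50 bases after the start of the gene and come from RefSeq on the build GRCm38.p6. Both strands were searched, capitals mark GTCT or its reverse complement AGAC, and no match overlapped another.
Sptlc1, chr13:53377312-53377611, minus strand: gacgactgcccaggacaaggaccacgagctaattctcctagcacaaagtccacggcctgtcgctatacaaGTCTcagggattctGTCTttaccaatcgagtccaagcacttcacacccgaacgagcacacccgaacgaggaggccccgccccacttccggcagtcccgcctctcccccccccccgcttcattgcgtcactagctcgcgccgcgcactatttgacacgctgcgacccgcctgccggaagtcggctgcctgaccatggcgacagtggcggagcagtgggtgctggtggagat
Sptlc3, chr2:139493663-139493962, plus strand: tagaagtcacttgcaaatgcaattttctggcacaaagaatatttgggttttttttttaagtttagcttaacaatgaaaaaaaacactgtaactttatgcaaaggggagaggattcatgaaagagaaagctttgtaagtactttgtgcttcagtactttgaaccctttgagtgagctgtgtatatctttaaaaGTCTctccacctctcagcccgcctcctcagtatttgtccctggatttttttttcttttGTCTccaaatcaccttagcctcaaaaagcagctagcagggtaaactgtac
Cers4, chr8:4493155-4493454, plus strand: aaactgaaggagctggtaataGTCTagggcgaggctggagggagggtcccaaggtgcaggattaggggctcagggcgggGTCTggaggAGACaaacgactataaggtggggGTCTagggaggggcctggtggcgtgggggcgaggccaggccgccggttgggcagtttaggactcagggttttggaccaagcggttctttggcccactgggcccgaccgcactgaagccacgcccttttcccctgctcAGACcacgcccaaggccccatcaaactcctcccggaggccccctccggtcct
GTCT occurred 2 times in the Sptlc1 window, 2 times in that of Sptlc3 and 5 times in that of Cers4, and it was present in 88% of all 32851 promoters of this length. None of these 3 windows held GGCGCC, which 11.9% of the promoters held, or GGAGCC, which 30.8% held. Among the other genes examined GGAGCC was present 2 times in the Sptlc2 window and 1 time in the Ugcg window, while Fa2h had no window to search. The windows differed in base composition, with 37.3% G and C for Sptlc3, 62.3% for Sptlc1 and 64.3% for Cers4, against a median of 52.7%.

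The arrays gave 14412 and 15800 spots well above background in the K14-caSmad1 channel on replicates 1 and 2, and 15570 and 16144 in the wild-type channel. The log2 ratios of the arrays correlated with r = 0.993 across 12287 probes with 1 spot each, where genes are not independent replicates. Their differences had an SD of 0.0946 there, below the 0.106 that spot noise alone predicts, whereas for 91 repeated probes the SD was 0.0546, above a predicted 0.0346. According to the labels the arrays are biological replicates, but nothing there says that they carry RNA of different animals, so that they were counted as 1 sample of each genotype. Every ratio below is K14-caSmad1 over wild type, given for both arrays or as their mean, with no error between animals. Where the values of the genotypes are said to lie apart, they come from arrays that count as 1 sample of each genotype. The share of all genes that lie apart in this way was not counted. A gene is called higher or lower where it differed at least 2-fold, that is by a log2 ratio of at least 1 in size, the same way on both arrays. Smad1 itself had log2 ratios of 0.28 and 0.26, and the files do not show whether its probe detects the transgene.

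The subunits of serine palmitoyltransferase did not move together: Sptlc1 and Sptlc3 were higher in K14-caSmad1 keratinocytes, while Sptlc2 was somewhat lower without reaching 2-fold. Cers4, a ceramide synthase, was lower by 3.01-fold, and the lipid transporter Abca12 was above wild type by 1.60-fold. The glucosylceramide synthase gene Ugcg was nearly equal in both genotypes. Of the 8 genes measured, 3 were thus called, 2 higher and 1 lower, and 5 were not. Among all 11752 genes tested 1633 (13.9%) were called, 480 higher (4.08%) and 1153 lower (9.81%). With median centring in place of loess the split was 1110 higher and 811 lower. The median log2 ratio was -0.13 over the 8 genes and -0.03 over all genes. In limma's test of the mean ratio against 0, which here shows only the repeatability between the arrays, 7 of the 8 genes had an adjusted p under 0.05, 3 higher and 4 lower, as did 87.1% of all genes. Ugcg was the exception, with an adjusted p of 0.346.

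**Figure D1:**
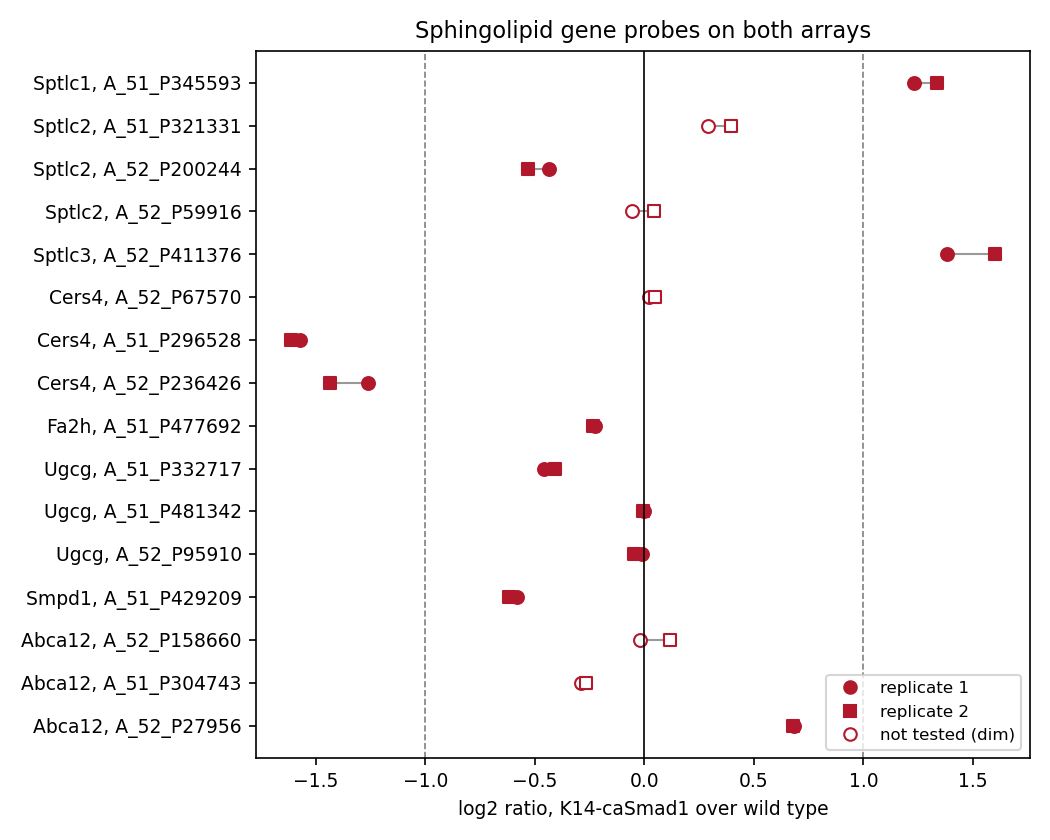
Log2 ratio of K14-caSmad1 over wild type (horizontal axis) for each of the 16 probes (rows), with circles for replicate 1 and squares for replicate 2. Open symbols are the 5 probes too dim to be tested and dashed lines mark 2-fold. Sptlc1 and Sptlc3 lie right of the upper line on both arrays, and 2 Cers4 probes lie left of the lower one.

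Sptlc1 encodes the subunit that serine palmitoyltransferase needs in all its forms. Its probe, at chr13:53428607-53428666 on the minus strand of mm9, had normalised intensities of 4561 and 4450 in K14-caSmad1 keratinocytes, against 1941 and 1763 in wild type. Both K14-caSmad1 values lie above both wild-type values. The log2 ratios were 1.23 and 1.34, a mean difference of 2.44-fold, and the gene stood at rank 212 from the top among the 11752 genes. In bulk RNA such as this, a change in the number of cells of a type and a change in RNA per cell cannot be told apart.

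Sptlc3 encodes a catalytic subunit that can take the place of Sptlc2 and widens the range of long-chain bases made. Its normalised intensities were 2844 and 5422 in K14-caSmad1 keratinocytes, against 1091 and 1789 in wild type. The genotypes did not overlap, but both channels were brighter on replicate 2, by 0.93 on the log2 scale for K14-caSmad1 and 0.71 for wild type. The log2 ratios were 1.38 and 1.60, a mean difference of 2.81-fold and rank 104 from the top. The difference of 0.22 between the arrays was the largest among the 8 genes, whose median was 0.0391. With all spots, those on a non-uniform background included, in the background fit the ratio of replicate 1 was 0.82 and the call was lost.

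Brightness that differed between the arrays followed the position of the spot. Of 12287 single-spot probes well above background, 830 (6.76%) were over 1.5-fold brighter on replicate 2 in both channels and 3 on replicate 1. All 830 lay in columns 1 to 45 of the 85 columns of the array. Of the 16 probes of the sphingolipid genes, dim ones included, 3 were brighter on replicate 2 by as much: Sptlc3 in column 5, a second Cers4 probe in column 24 and a dim Sptlc2 probe in column 21. The log2 ratios of the 830 probes differed between arrays by a median of 0.0886, against 0.04 for the others. Sptlc1 in column 25 and the main Cers4 probe in column 62 were not brighter on replicate 2 by as much. Column 25 lies within columns 1 to 45, however, and the log2 ratio of Sptlc1 differed between the arrays by 0.103.

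**Figure D2:**
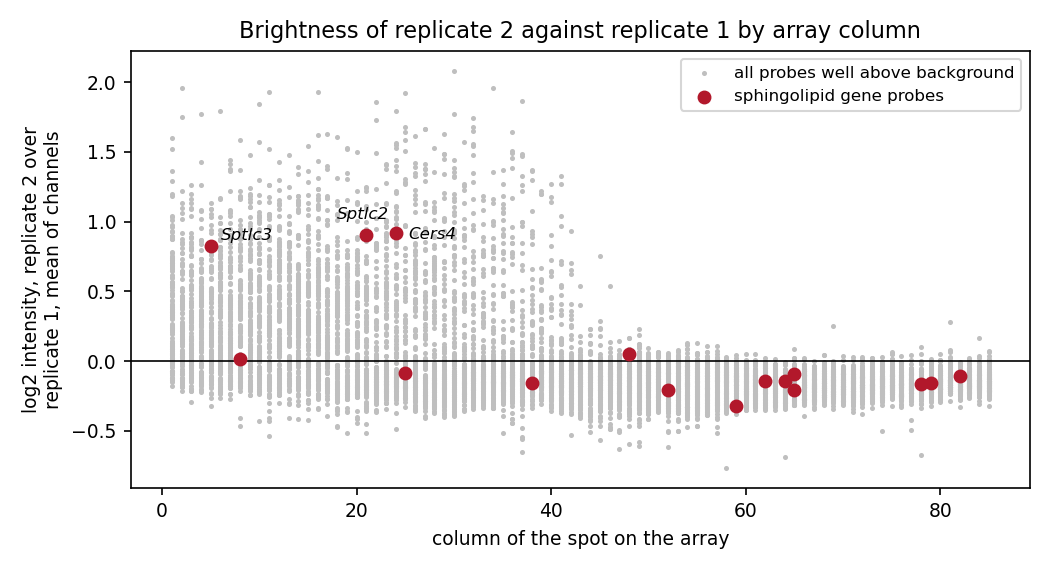
Log2 intensity of replicate 2 over replicate 1, mean of both channels (vertical axis), against the column of the spot (horizontal axis). Grey points are the 12287 probes well above background and red points the 16 probes of the sphingolipid genes, dim ones included. Probes that are much brighter on replicate 2 lie in the left columns, and those of Sptlc3, Sptlc2 and Cers4 are labelled.

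Sptlc2 encodes the more widely used catalytic subunit, and its 3 probes differed. The probe that represents it, at chr12:88650718-88650777 on the minus strand of mm9, gave 1632 and 1261 in K14-caSmad1 keratinocytes, against 2207 and 1825 in wild type. Both K14-caSmad1 values lie below both wild-type values, and the log2 ratios of -0.44 and -0.53 correspond to 1.40-fold. A probe 32891 bases further 5′ in the genome had intensities of 311 and 603 in K14-caSmad1 and 255 and 459 in wild type. It was well above background only on replicate 2, its log2 ratios of 0.29 and 0.39 had the opposite sign, and it was not tested. The remaining probe, nearest the 3′ end, was dim throughout, with log2 ratios of -0.06 and 0.05.

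Cers4 encodes a ceramide synthase that attaches long and very long acyl chains and is expressed in sebaceous glands and hair follicles of mouse skin. Its main probe, at chr8:4523988-4524047 on the plus strand of mm9, had 3481 and 3112 in K14-caSmad1 keratinocytes, against 10344 and 9513 in wild type. The groups lie far apart, with log2 ratios of -1.57 and -1.61 and rank 565 from the bottom. A second probe, at chr8:4524419-4524478, had 579 and 1032 in K14-caSmad1, against 1387 and 2790 in wild type. There the replicates differed within a genotype, yet the log2 ratios of -1.26 and -1.44 were past 2-fold too. The remaining probe, 2363 bases upstream of the second, was dim in both genotypes. The markers of hair shaft and root sheath were lower too: 15 of 15 tested were called lower, with a median log2 ratio of -3.88. Their summed intensity was 128595 and 127649 in K14-caSmad1, against 2230870 and 2342200 in wild type. Of 15 sebocyte markers 10 were tested and 1 was called lower, Elovl3, with -3.20. Mgst1 fell just short of a call, with a mean of -0.95, and its other probe had -2.14. Cidea was the highest, with 0.74. Among the 10, 7 lay below 0 and 3 above, with a median of -0.18. The summed intensity was 134606 and 125788 in K14-caSmad1, against 139936 and 133410 in wild type. A few bright probes make up most of that sum, so that it says little about the other markers. The part of these cells in the Cers4 difference was not tested. Other ceramide synthases come from the list of de novo synthesis below and were named after their values were seen. Cers5 had log2 ratios of 0.93 and 0.93 and Cers6 of 0.79 and 0.76, above wild type and short of 2-fold. Both were past it with median centring, at 1.24 and 1.05, where the median of all genes was 0.22. Cers5 but not Cers6 was past it with the processed signals and the deposited log ratios too, at 1.22. Cers2 had -0.29 and -0.64 and was well above background in K14-caSmad1 on replicate 2 only.

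Fa2h encodes the hydroxylase that puts a 2-hydroxyl group on the fatty acids of ceramides. Its probe, at chr8:113869301-113869360 on the minus strand of mm9, had 2691 and 2431 in K14-caSmad1 keratinocytes, against 3145 and 2862 in wild type. The highest K14-caSmad1 value lies below the lowest wild-type one, but the difference was small, with log2 ratios of -0.22 and -0.24. With median centring the mean ratio was 0.08, where the median of all genes was 0.22, so that the sign of Fa2h depends on the scaling.

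Ugcg encodes the enzyme that makes glucosylceramide, which lamellar granules carry. Its representing probe, at chr4:59235333-59235392 on the plus strand of mm9, had 9908 and 8469 in K14-caSmad1 keratinocytes, against 9981 and 8756 in wild type. The genotypes overlap, and the log2 ratios were -0.01 and -0.05. The neighbouring probe gave 6552 and 5829 in K14-caSmad1, against 6552 and 5855 in wild type, with log2 ratios of 0.00 and -0.01. A dimmer probe, 3964 bases 5′ of the first, had 469 and 447 in K14-caSmad1 and 643 and 593 in wild type. Its log2 ratios were -0.46 and -0.41, and in K14-caSmad1 it was well above background on replicate 2 only.

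Smpd1 encodes acid sphingomyelinase, which releases ceramide from sphingomyelin in lysosomes and in the spaces of the cornified layer. Its probe, at chr7:112706752-112706811 on the plus strand of mm9, had 20774 and 17741 in K14-caSmad1 keratinocytes, against 31107 and 27256 in wild type. The genotypes did not overlap, and the log2 ratios of -0.58 and -0.62 correspond to 1.52-fold lower in K14-caSmad1, short of the 2-fold mark.

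Abca12 encodes the transporter that loads glucosylceramide into lamellar granules, and its loss causes harlequin ichthyosis in humans. Its probe near the 3′ end, at chr1:71289712-71289771 on the minus strand of mm9, had 6363 and 5713 in K14-caSmad1 keratinocytes, against 3967 and 3564 in wild type. The groups lie apart, with a log2 ratio of 0.68 on each array. The other probes, 47199 and 70804 bases further 5′ in the genome, were not well above background in either genotype and had log2 ratios between -0.29 and 0.12.

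**Figure D3:**
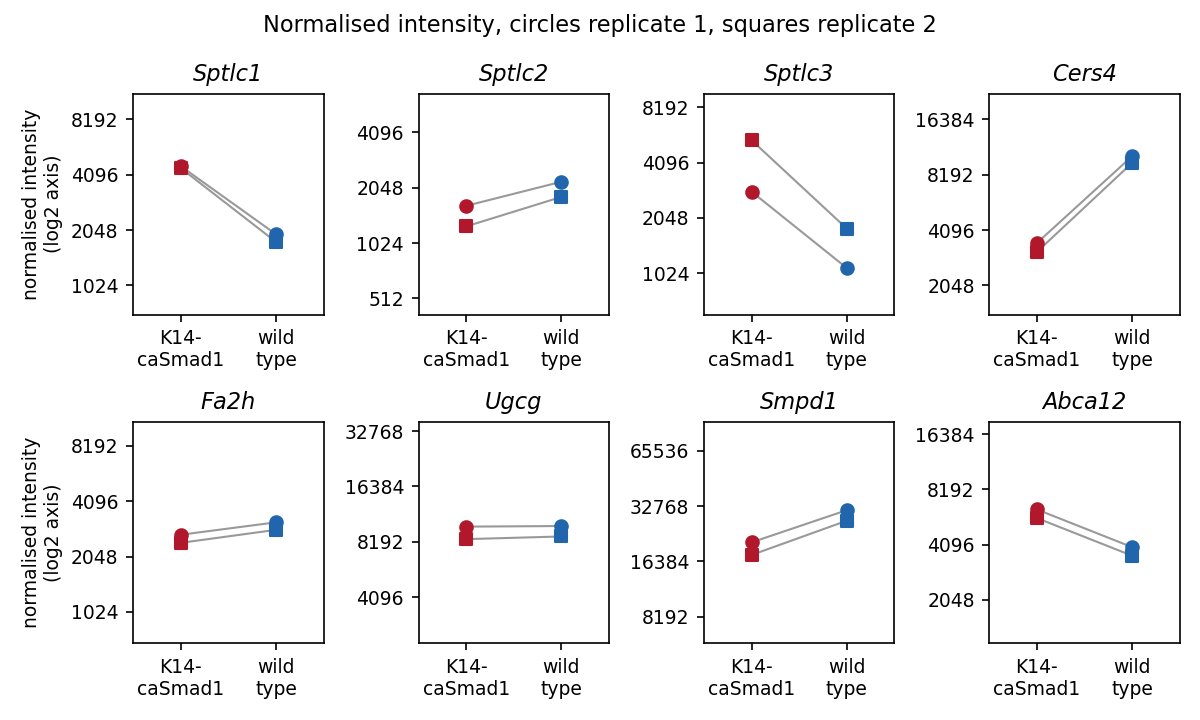
Normalised intensity on a log2 axis (vertical) of the representing probe of each of the 8 genes, with K14-caSmad1 in red on the left and wild type in blue on the right of each panel, circles for replicate 1 and squares for replicate 2, and lines joining the channels of 1 array. Levels are not comparable between panels, since each is another probe. The lines climb toward wild type for Cers4 and fall away for Sptlc1 and Sptlc3.

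The neighbouring genes of the pathway, 69 in 5 lists, were then examined, of which 59 were tested and 10 called, 5 higher and 5 lower. This is 16.9%, near the 13.9% of all genes. With median centring the split was 10 higher and 4 lower. Where both channels had to be well above background, 53 were tested, with 5 higher and 3 lower, against 458 higher and 857 lower among all genes. The calls of Sptssb and Smpdl3b fell away there, since both passed the main filter only through wild type. The median log2 ratio of the lists was -0.05. De novo synthesis, with 11 of 12 genes tested, had 2 higher, 1 lower and a median of 0.47. With median centring it had 5 higher and 1 lower and a median of 0.70, where the median of all genes was 0.22. With both channels well above background 9 were tested, with 2 higher, 0 lower and a median of 0.78. Sptssa encodes a small subunit that activates serine palmitoyltransferase, and had 22140 and 22665 in K14-caSmad1 keratinocytes, against 7568 and 7545 in wild type, a log2 ratio of 1.57. Degs1 encodes the desaturase that makes ceramide from dihydroceramide. It had 16111 and 13798 in K14-caSmad1, against 5803 and 5084 in wild type, a log2 ratio of 1.46. Both lie well apart. Sptssb, the alternative small subunit, was not well above background in K14-caSmad1 on either array, with measured values of 387 and 350, against 2258 and 2065 in wild type. It was at least 5.21-fold lower, where the bound takes the lowest signal well above background, or the dim value where it is higher, as the level of the dim channel, and is open to dye bias. The bound is that of the processing described: with all spots in the background fit replicate 1 had a log2 ratio of -0.75, the mean was -1.65 and the call was lost, and with no background subtraction the mean was -1.87. Keratinocyte markers were mixed beside these genes: 5 of 12 were called higher, 0 lower and 7 not called, with a median of 0.83, and 9 lay above 0 and 3 below. Their summed intensity was 682682 and 730882 in K14-caSmad1, against 419069 and 396606 in wild type. A few bright probes, that of Krt10 among them, make up most of this sum too, so that it says little about the other markers. The 5 called were Krt1, with a mean log2 ratio of 1.80, Krt5, with 1.70, Trp63, with 1.69, Itga6, with 1.54 and 1.46 on the arrays, and Krt14, with 1.07. Below 0 were Cdh1, with -0.89, and the genes of late differentiation Ivl, with -0.83, and Flg, with -0.80. Cdh1 was dim in K14-caSmad1 and at least 1.34-fold lower. Lor, of late differentiation too, lay above 0, with 0.52. Krt10 was at 0.02. Probes disagreed for Trp63, whose other probe had -0.78, and for Krt10, whose other probe had 2.29. Of the other cell types, 2 of 5 melanocyte and 3 of 4 fibroblast markers were called lower, while 0 of 3 endothelial and 0 of 5 leukocyte markers were called. All 5 melanocyte, all 4 fibroblast and all 3 endothelial markers lay below 0, with medians of -1.22, -1.44 and -0.90. The fibroblast and endothelial markers and several melanocyte markers were dim in K14-caSmad1. These passed the filter only through wild type, so that a ratio above 0 could hardly have been seen for them. Their bounds ran from at least 1.12-fold lower for Tyrp1 to at least 3.16-fold lower for Col3a1. Of the leukocyte markers 3 lay above 0 and 1 below, with a median of 0.11. Ptprc, with 0.90, and Cd207, with 0.86, were the highest and short of 2-fold. Itgax, which lay below 0 with -0.41, was dim in K14-caSmad1 and passed the filter only through wild type. The part of any of these cells in the differences was not tested.

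In the sphingomyelin and ceramide transfer list 9 of 10 genes were tested, with 1 higher, 2 lower and a median of -0.21. Sgms1, a sphingomyelin synthase, had a log2 ratio of 1.32, but 0.43 on another probe, and a mean over its probes of 0.87 ended the call. With all spots in the background fit the call was lost too, at a mean of 0.87, and with the deposited log ratios the value was 2.20. Samd8, whose product makes ceramide phosphoethanolamine, had 700 and 613 in K14-caSmad1, against 6076 and 5125 in wild type, a log2 ratio of -3.09. Its other probe had -0.53. Smpdl3b, related to acid sphingomyelinase, was not well above background in K14-caSmad1, and its ratio of -1.08 stands for at least 1.21-fold lower. The lowest ratio among genes not called was also -1.08, for the neutral sphingomyelinase Smpd2, dim in K14-caSmad1 and at least 1.91-fold lower.

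In the list of glycosphingolipid synthesis and breakdown 12 of 17 genes were tested, with 0 higher, 2 lower and a median of -0.26. Both were hydrolases that split sugars from glycolipids. Gla, alpha-galactosidase A, had 730 and 631 in K14-caSmad1, against 11581 and 9219 in wild type, 15.2-fold lower. Gba2, a glucosylceramidase outside the lysosome, had 2811 and 5241 in K14-caSmad1, against 9159 and 13613 in wild type, with log2 ratios of -1.70 and -1.38. The groups did not overlap for either gene. The highest ratio of the list was 0.45, for the cerebroside sulphotransferase Gal3st1.

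Of 10 tested genes of ceramide and sphingosine-1-phosphate breakdown, in a list of 12, none was called on this rule. The median was -0.16. Under 4 of 10 alternatives 1 gene was called higher, Sgpp1 in 3 and Acer3, an alkaline ceramidase, with the mean of its probes. Acer3 had a log2 ratio of 0.51 on the representing probe and 1.55 on the other, with a mean of 1.03. The highest was Sgpp1, a sphingosine-1-phosphate phosphatase, with a log2 ratio of 0.95, and the lowest Spns2, a sphingosine-1-phosphate exporter, with -0.90. The list of omega-hydroxyacylceramide and lamellar granule genes, 17 of 18 tested, had 2 higher, 0 lower and a median of 0.08. Klk7, a protease that helps to shed cornified cells, had 85914 and 75215 in K14-caSmad1, against 27376 and 25626 in wild type, a log2 ratio of 1.60. Its other probes had 0.84 and 0.51, and a mean over probes of 0.99 ended the call. Elovl4, the elongase for the ultra-long fatty acids of acylceramides, had 16675 and 13636 in K14-caSmad1, against 8098 and 6654 in wild type, and with log2 ratios of 1.04 and 1.04 it was just past 2-fold. The lowest of this list was the fatty acid transporter Slc27a4, with -0.70.

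**Figure D4:**
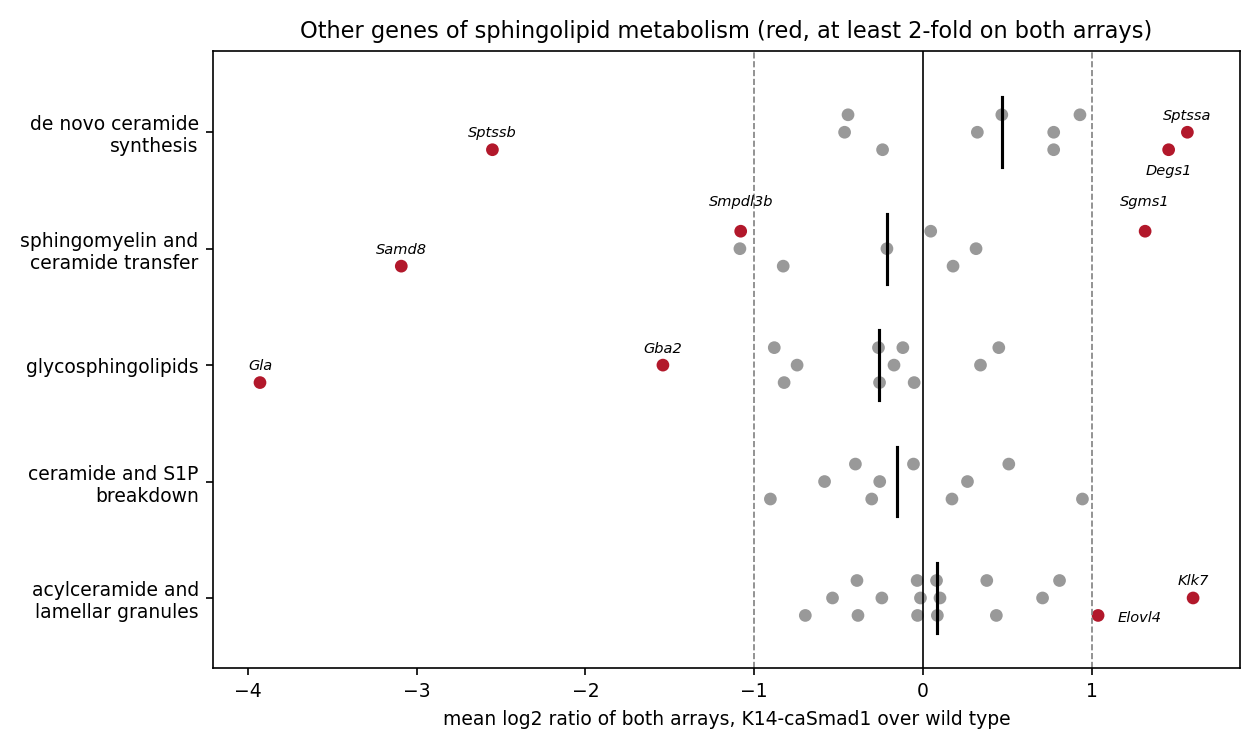
Mean log2 ratio of both arrays (horizontal axis) of the 59 tested pathway genes in 5 lists (rows), with red points for the 10 genes called and grey points for the rest. Black bars are list medians and dashed lines mark 2-fold. Measured ratios are drawn for genes dim in K14-caSmad1, Sptssb and Smpdl3b among those called.

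The ratios of the 8 genes were followed through 10 other ways of processing, not all of which could end a call. Leaving out an array cannot, since a call needs 2-fold on both. Changes of filter or probe choice left Sptlc1 and Sptlc3, with a single probe each, at their values. The scanner software's processed signals and the deposited log ratios gave nearly the same values. Sptlc1 lay between 1.22 and 1.59 and was called in 10 of 10. Cers4 lay between -1.63 and -1.30 and was called in 10 of 10. Sptlc3 lay between 1.21 and 1.83 and was called in 9 of 10. Each of Sptlc2, Smpd1 and Abca12 kept its sign in all 10 and was called in 0, with Abca12 reaching 0.98 with median centring. Ugcg kept its sign in 7 of 10, its values lying between -0.15 and 0.25.

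**Figure D5:**
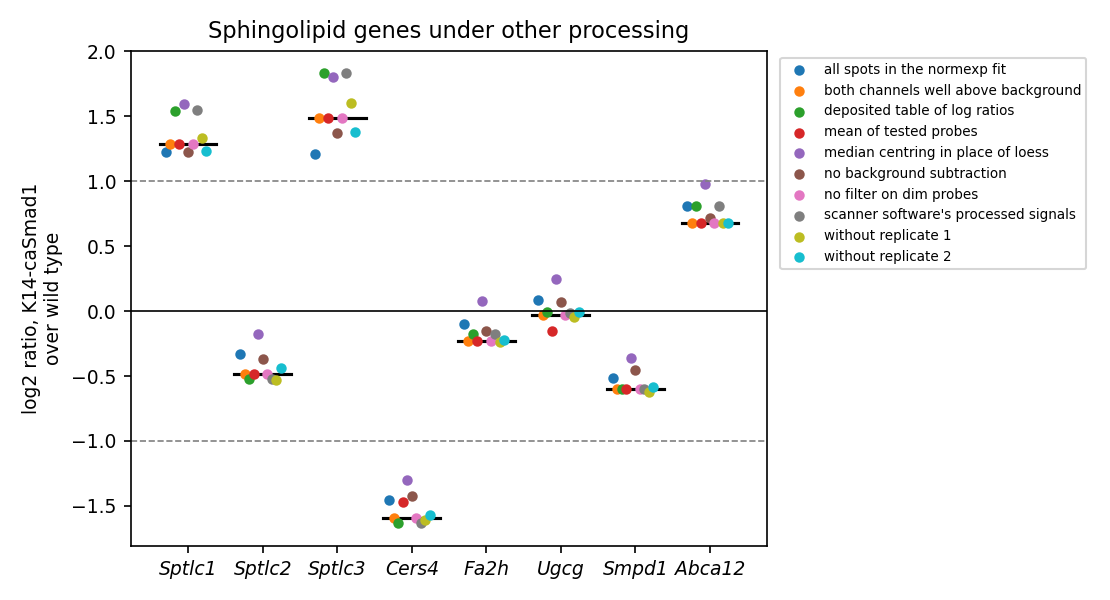
Log2 ratio of K14-caSmad1 over wild type (vertical axis) of the 8 genes under the processing described (black bars) and 10 alternatives (coloured points). Dashed lines mark 2-fold. Only Fa2h and Ugcg cross 0, and among the 8 genes only Sptlc1, Sptlc3 and Cers4 lie beyond the dashed lines.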

How the data were processed

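RNA was purified on columns, amplified in 1 round and labelled in 2 colours, per the labels' protocols. The scanner files, produced with the Agilent Feature Extraction software per their headers, hold mean signal and local background intensity per spot as deposited, a processed intensity, and probe positions on mm9. The deposited table of the series holds log10 ratios, which differed from the ratio of the deposited processed intensities by at most 0.00397. The log10 ratios themselves had medians of 0.023 on replicate 1 and -0.01 on replicate 2. The dye and genotype of each channel come from the labels, there was no dye swap, and both arrays lay on 1 slide.

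Background was corrected with limma 3.58.1 (R 4.3.3) by normexp with an offset of 50, after removal of 36 replicate 1 spots whose local background was uneven, a choice made with earlier results known. Log2 ratios were normalised by loess with a span of 0.3, and intensities are on the Aquantile scale. Probes well above background on both arrays in at least 1 channel were tested, 15110 of 41174 (11 of the 16 probes of the sphingolipid genes), and the brightest probe represented a gene. No gene spot was saturated. Limma's adjusted p-values are by Benjamini-Hochberg over 11752 genes. The fit was tested on simulated data. Gene names were updated through RefSeq (GRCm38.p6). Exon or UTR positions were not assigned, as the given annotation is of another build than mm9.

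The 9 genes and the lists were chosen with earlier results of these data known. Named genes are these 9 with every probe, Smad1, and the called, highest and lowest genes of each list. The exceptions are the cell type markers, the ceramide synthases Cers2, Cers5 and Cers6, Acer3, Smpd2 and the genes whose call came with a setting. These were named after their values were seen. A gene of the pathway lists is not reported here and was left out of their counts. Alternatives varied background, loess, filter, probe choice and arrays. The number of arrays limits the precision.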

Additional observations from a re-analysis of the deposited data

How the results depend on the processing

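The count of 3 called among the 8 sphingolipid genes held in 9 of 10 alternatives and was 2 with all spots in the background fit, which lost Sptlc3. Not all 10 could have lowered it, since leaving out an array cannot end a call. The count of all genes called was 776 with all spots in the fit, 3130 with the scanner software's processed signals and 3126 with the deposited log ratios, against 1633. With the processed signals and with the deposited log ratios the pathway lists had 16 calls each, against 10, and the 6 added were Cers5, Smpd2, B4galt6, St3gal5, Sgpp1 and Slc27a4. Leaving out 1 array gave 1747 to 1766 genes, 3 sphingolipid genes in both cases and 10 to 11 pathway genes. Since the main rule needs 2-fold on both arrays, these counts could only stay or rise. Genes past limma's threshold numbered 3281 with all spots and 17755 with no filter on dim probes, which tests more genes, against 10239. Apart from the filter, the cause of these shifts was not tested. The calls of Sptssb and Sgms1 were lost with all spots in the fit, and that of Smpdl3b there and also with median centring and with no background subtraction. Samd8 had -1.81 as the mean of its probes. Each ratio already pairs the genotypes within an array, so that no further replicate block could be fitted. Slide could not be used as a block, since there was 1 slide. Dim genes can move far, Smpd2 having -2.73 with the processed signals against -1.08, and dye bias cannot be told apart from genotype.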
